A study of Saccharomyces cerevisiae with 4 samples.

Results

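The genes of meiosis and sporulation were examined in 4 Saccharomyces cerevisiae (budding yeast) strains, with and without the genes UBP10 and SIR4. The group was a list of 36 gene symbols, fixed with earlier results of these data known. It covered regulators and early, middle and late genes of the programme. All 36 had at least 1 probe set of their own among the 5656 genes measured. They were 5 regulators, 10 genes of meiotic recombination, 8 genes of the chromosome axis, synapsis and meiosis I, and 13 genes of spore formation. The wild type was W303-1A, a haploid laboratory strain whose mating type is a. It was set beside null mutants of ubp10, of sir4 and of both genes (the double mutant), and total RNA came from each strain during exponential growth. UBP10 encodes a ubiquitin protease whose best known substrate is histone H2B. SIR4 encodes a subunit of the complex that silences telomeres and the spare mating-type cassettes. The parent strains of the mutants, their deletion alleles and the growth medium are not stated in the labels. One Affymetrix Yeast Genome S98 array was run per strain. The differences below therefore carry no replicate check, error or p-value, and the number of arrays sets the precision.

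Yeast enters meiosis only when it holds both mating types and is starved. The a1 and alpha2 proteins, made together in a diploid, repress the haploid-specific gene RME1, whose product blocks IME1. Ime1 then acts with Ume6 at early genes, the kinase Ime2 and the transcription factor Ndt80 carry the programme on to middle genes, and spores are built last. In a haploid, loss of silencing lets the spare cassettes be read, so the cell holds a1 and alpha2 although it is not a diploid. Cultures in exponential growth lack the starvation signal.

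The values are linear intensities, each the mean excess of perfect-match over mismatch probes, and can be negative. A floor of 3 noise SDs, 6.67 units, was set, and a change was called where the brighter of the values compared reached 13.3 units and the ratio reached 2. In 3 of the 5 comparisons the log2 ratios of genes detected above the floor by both arrays had a median away from 0. It was 0.49 for the sir4 label and 0.54 for the double mutant against wild type, and 0.50 for the double mutant against the ubp10 mutant. Ratios and folds in those comparisons are given relative to that median, and the ratio of the values as deposited is named as such. A ratio against a value at the floor is a lower bound.

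UBP10 read 247.9 units in wild type and 269.2 on the sir4-labelled array, and lay under the floor at 5.7 and 4.0 units in the ubp10 mutant and the double mutant. SIR4 was dim on every array, between 4.9 and 20.7 units, and was not lower on the arrays labelled as lacking it, so the sir4 genotype of both the sir4 mutant and the double mutant is taken from the labels alone. The array of the first is called sir4-labelled below, and every direction given for the double mutant rests on its label in the same way for SIR4. The sir4-labelled array also stood apart in its RNA controls. The probe set at the 5′ end of ACT1 read 16.1 units there against 1399.6 at the 3′ end, while on the other arrays the 5′ end read 945.5 to 1907.3 units. The haploid a identity of the wild type was visible in MFA1, MFA2 and STE2, genes of a-factor and of the alpha-factor receptor: MFA2 read 1117.4 units and STE2 231.2. Both stayed bright in the ubp10 mutant, with 1195.7 and 117.1 units, and on the sir4-labelled array, with 761 and 174.4. In the double mutant MFA2 read 14.8 units and STE2 6.3. The sir4-labelled array thus kept a-specific signal that the double mutant did not, and the reason was not tested.

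Most meiosis and sporulation genes gave no signal above the noise in any strain. Of the 36 genes, 22 (61.1%) lay at the floor on every array, against 5.78% of all genes. Only 5 (13.9%) were above the floor on every array, against 82.1% of all genes: IME1, NDT80, UME6, ZIP1 and SPS4. In the wild type 5 of 36 were above the floor, in the ubp10 mutant 7, on the sir4-labelled array 10 and in the double mutant 11. These are shares of 13.9%, 19.4%, 27.8% and 30.6%, while the share of all genes above the floor was 86.5%, 88.0%, 89.3% and 90.8%. The brightest of the genes in the wild type was UME6, with 18.0 units, and 70.8% of all genes were brighter than it. Probe sets differ in how strongly they bind, so this is a place on the arrays and not a transcript number. In these bulk cultures, fewer cells with a transcript and less of it per cell cannot be told apart.

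**Figure D1:**
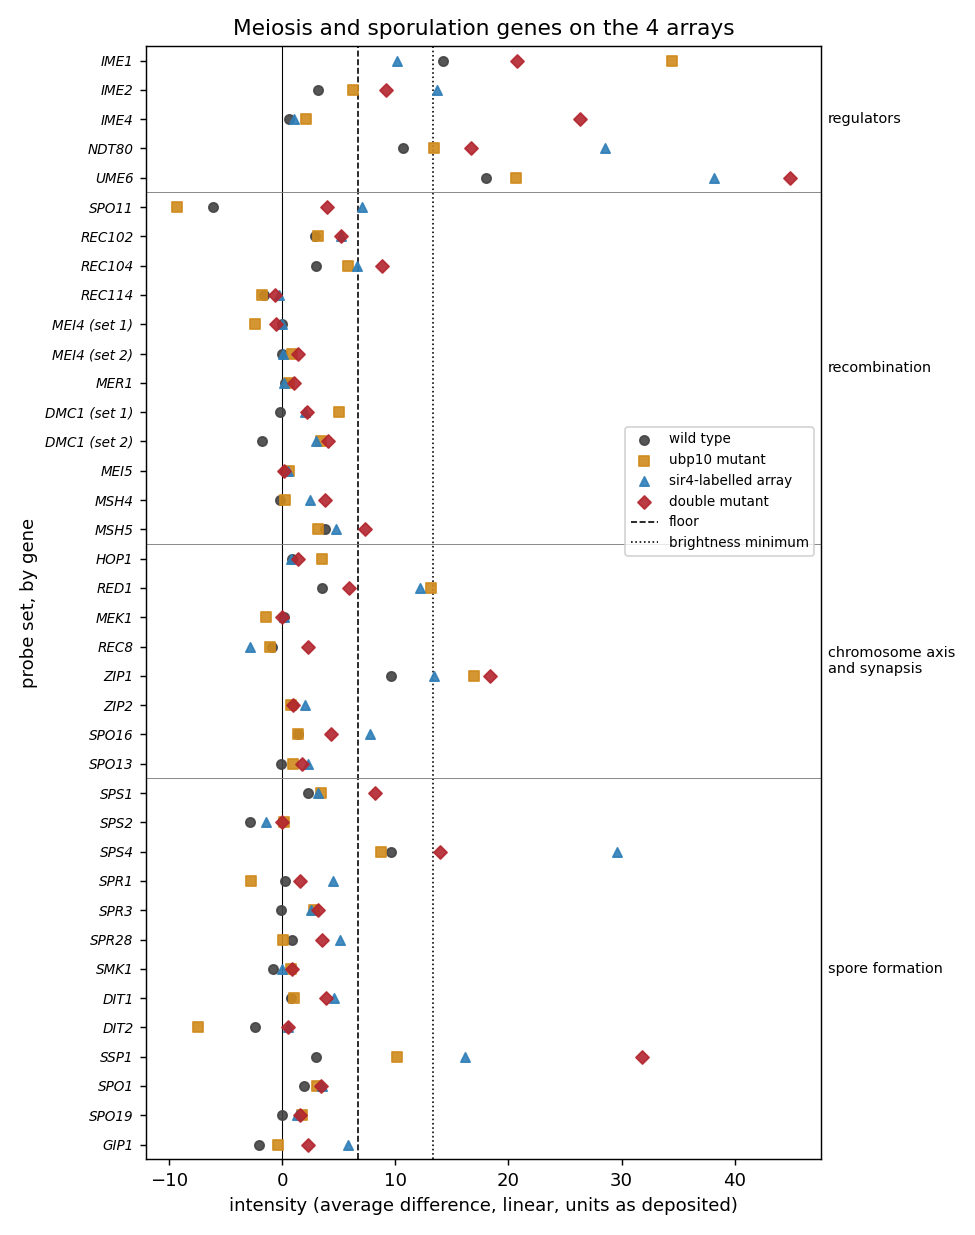
Intensity of each of the 38 probe sets of the 36 meiosis and sporulation genes (horizontal axis, linear units) on the 4 arrays (1 marker per strain), grouped by role. The dashed line is the floor of 6.67 units and the dotted line the brightness minimum of 13.3 units. Most markers sit left of the floor, and no value exceeds the 44.9 units of UME6 in the double mutant.

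The undetected genes included the executors of each stage. Among recombination genes, 7 of 10 were at the floor on every array: REC102, which works with the break-forming enzyme Spo11, REC114 and MEI4, accessory proteins of break formation, MER1, a meiotic splicing activator, DMC1, the meiotic strand exchange protein, MEI5, which assists Dmc1, and MSH4, a crossover protein. Among the axis and synapsis genes, 5 of 8 were: HOP1 and the kinase gene MEK1 of the chromosome axis, REC8, the meiotic cohesin, ZIP2, a protein of synapsis initiation, and SPO13, which acts at centromeres in meiosis I. Among spore formation genes, 10 of 13 were: the septin genes SPR3 and SPR28, SPS2 of the spore wall, the glucanase gene SPR1, SMK1, a MAP kinase of spore wall assembly, DIT1 and DIT2 of dityrosine synthesis, SPO1, SPO19 and GIP1, a targeting subunit of protein phosphatase. The 24 probe sets of these 22 genes read between -7.4 and 5.8 units. Their medians were 0.0 units in wild type, 0.7 in the ubp10 mutant, 1.65 on the sir4-labelled array and 1.6 in the double mutant, all within the noise SD of 2.22 units. Values that low do not show that the transcripts were absent, only that they were not detectable on these arrays. The pairs DIT1 and DIT2, and SPS1 and SPS2, are neighbours in the genome, and of these 4 genes only SPS1 passed the floor, on 1 array.

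The calls were few, and their share was close to or under that of all genes. Against wild type, 1 of 36 (2.78%) was higher in the ubp10 mutant, where 9.44% of all genes were higher and 8.38% lower. On the sir4-labelled array 1 of 36 was higher, where 6.03% of all genes were higher and 9.65% lower. In the double mutant 2 of 36 (5.56%) were higher, where 4.3% of all genes were higher and 6.63% lower. No member was lower in these 3 comparisons; there is no test behind the counts. The 3 share the wild-type array and are not independent.

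Against the ubp10 mutant, 2 of 36 were higher in the double mutant and 1 was lower, where 13.4% of all genes were higher and 13.2% lower. Against the sir4-labelled array, 2 were higher in the double mutant and 1 was lower, where 7.94% of all genes were higher and 3.11% lower. Dim genes can hardly fall, so genes that began at the floor give a closer background for rises. Of the 31 members at the floor in the wild type, 6 (19.4%) were above it in the double mutant, against 39.3% of the 761 genes that were at the floor there, and 2 of the 31 (6.45%) were called higher, against 5.78% of the 761. In the ubp10 mutant it was 2 of the 31 (6.45%) against 29.2%, with 0 of the 31 called and 11.8% of the 761, and on the sir4-labelled array 5 of the 31 (16.1%) against 35.5%, with 0 of the 31 called and 5.52% of the 761. The median log2 ratio of the 36 genes on the values as deposited was 0.00 in each of the 5 comparisons, because between 22 and 29 of them were at the floor on both arrays. The same median over all genes was 0.00 for the ubp10 mutant, 0.41 for the sir4-labelled array and 0.47 for the double mutant against wild type, 0.41 for the double mutant against the ubp10 mutant and 0.00 against the sir4-labelled array.

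**Figure D2:**
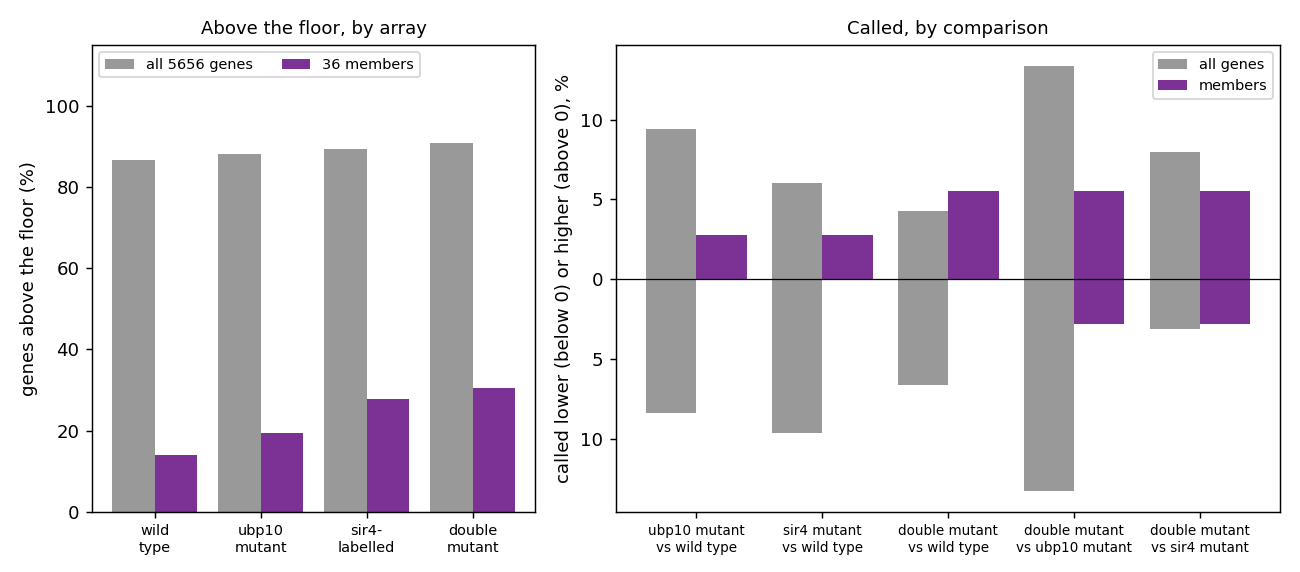
Left, percentage of genes above the floor on each array, for all 5656 genes (grey) and for the 36 meiosis and sporulation genes (purple). Right, percentage of genes called higher (above 0) or lower (below 0) in each comparison, for the same groups. Between 13.9% and 30.6% of the 36 genes were above the floor, against 86.5% to 90.8% of all genes, and the purple bar for higher calls exceeds the grey one only for the double mutant against wild type, 5.56% against 4.3%.

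IME4, which encodes the mRNA methyltransferase needed for meiosis, was above the floor in the double mutant alone. It read 0.6 units in wild type, 2.1 in the ubp10 mutant, 1.1 on the sir4-labelled array and 26.3 in the double mutant. The first 3 values lie within the noise, and the double mutant is the only array on which the gene was detected. Its level in the double mutant was at least 2.70-fold above wild type, at least 2.79-fold above the ubp10 mutant and at least 3.94-fold above the sir4-labelled array. On the values as deposited it was at least 3.94-fold in each. With the floor doubled the calls were lost, with log2 bounds of 0.47, 0.53 and 0.98. IME4 was the only one of the 36 genes called higher in the double mutant against all 3 other strains.

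IME4 is known for an antisense transcript that is made in haploids, blocks the sense RNA and is repressed by a1 with alpha2. The next gene, YGL193C, lies on the opposite strand and is known as a haploid-specific gene; it was singled out here after its values were seen. YGL193C read 37.6 units in wild type, 29.1 in the ubp10 mutant, 143.2 on the sir4-labelled array and 2.6 in the double mutant. It was thus detected on the 3 arrays on which IME4 was not, and under the floor on the one where IME4 was. It was at least 8.22-fold lower in the double mutant than in the wild type and at least 21.5-fold lower than on the sir4-labelled array. Against wild type it was 2.71-fold higher on the sir4-labelled array. COX13, the neighbour on the other side, which encodes a subunit of cytochrome oxidase, read 360.0, 568.8, 406.7 and 548.1 units in the same order and was not called in the comparisons in which IME4 was.

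RME1, the haploid-specific repressor of IME1, fell in the double mutant. It read 151.9 units in wild type, 230.9 in the ubp10 mutant, 122.5 on the sir4-labelled array and 13.0 in the double mutant. The double mutant was 17.0-fold below wild type, 25.1-fold below the ubp10 mutant and 9.42-fold below the sir4-labelled array. All 8 haploid-specific genes examined, RME1 among them, and 6 of 7 a-specific genes were lower in the double mutant than in the wild type. Of all genes, 6.63% were. These lists were chosen with earlier results of these data known, so the contrast is not an independent check. In the ubp10 mutant 2 of the 8 and 2 of the 7 were lower, where 8.38% of all genes were. The sir4-labelled array had 1 of the 8 lower and 2, GPA1 and HO, higher. There 3 of the 7 were lower, and 0 on the values as deposited. Of all genes there, 9.65% were lower and 6.03% higher. Of 4 alpha-specific genes, STE3 alone was called higher in the double mutant than in the wild type, where 4.3% of all genes were.

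The copies of the mating-type genes gave a less uniform picture. A strain of mating type a also carries a1 at its expressed mating-type locus, so a1 signal cannot be assigned to the spare cassette. For HMRA1, the a1 gene, values follow for the wild type, the ubp10 mutant, the sir4-labelled array and the double mutant. Its probe sets read 2.3, 2.2, 15.0 and 14.2 units, 2.5, 2.0, 20.2 and 14.7 units, and 88.1, 279.3, 252.4 and 216.6 units. The dimmer ones passed the floor only on the last arrays named, while the brightest was highest in the ubp10 mutant. Averaged, HMRA1 was not called relative to the median ratio. One probe set that matches every alpha1 copy gave 17.3 units for the wild type, 14.8 in the ubp10 mutant, 57.2 on the sir4-labelled array and 93.1 in the double mutant. The second alpha1 probe set did not pass the floor on any array and read between -0.5 and 1.3 units. The 2 probe sets shared by the alpha2 copies also match HMRA2, the a2 gene, so their signal cannot be assigned to alpha2. They read 49.2, 65.4, 143.0 and 143.8 units, and 24.6, 82.8, 30.2 and 71.3 units, in that order. Both of these shared probe sets were thus higher in the double mutant than in the wild type, but on the sir4-labelled array they did not move alike.

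IME1, the transcription factor that starts meiosis, did not follow RME1. It read 14.2 units in wild type, 34.5 in the ubp10 mutant, 10.2 on the sir4-labelled array and 20.8 in the double mutant. The highest value was in the ubp10 mutant, where RME1 was also highest, and not in the double mutant, where RME1 was lowest. IME1 was 2.43-fold higher in the ubp10 mutant than in the wild type. It was 2.35-fold lower in the double mutant than in the ubp10 mutant, but 1.66-fold on the values as deposited, which is under the ratio that was called. Against the sir4-labelled array the double mutant was 2.04-fold higher, just inside the call, which was lost under quantile normalization, cyclic loess and a doubled floor, and against wild type its log2 ratio was 0.01, or 0.55 on the values as deposited. The sir4-labelled array was 1.96-fold below wild type, just outside the call, and 1.39-fold on the values as deposited.

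**Figure D3:**
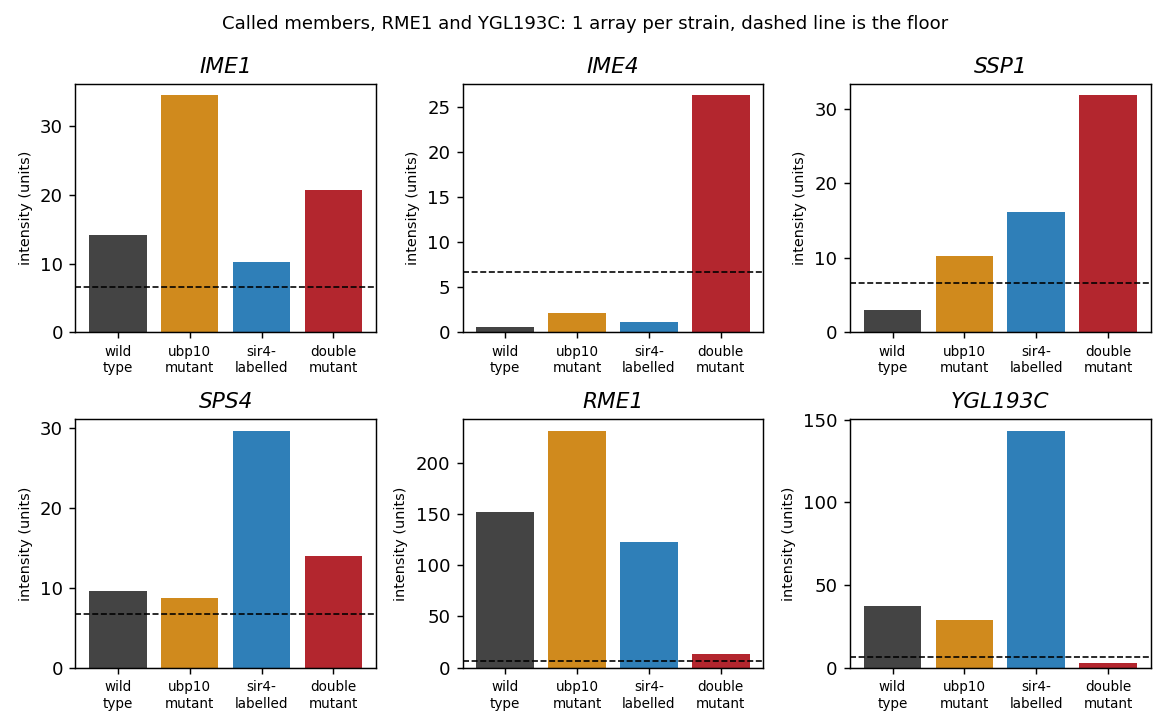
Intensity (vertical axis, linear units, scale differs between panels) of the 4 called members, IME1, IME4, SSP1 and SPS4, and of RME1 and YGL193C on the 4 arrays, 1 bar per array with no error because each strain had 1 array. The dashed line is the floor of 6.67 units. IME4 passes the floor only in the double mutant, with 26.3 units, the array on which RME1 and YGL193C are lowest, with 13.0 and 2.6 units.

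The regulators IME2, NDT80 and UME6 were dim and not called relative to the median ratio. On the values as deposited all were called higher on the sir4-labelled array, where 19.8% of all genes were. IME2, the kinase that Ime1 induces, read 3.2 units in wild type, 6.3 in the ubp10 mutant, 13.7 on the sir4-labelled array and 9.2 in the double mutant. NDT80, the activator of middle genes, read 10.7, 13.4, 28.5 and 16.7 units in the same order. Both were highest on the sir4-labelled array, not in the double mutant. IME2 was at least 1.46-fold above wild type there, and at least 2.05-fold on the values as deposited. NDT80 was 1.89-fold above wild type there, and 2.66-fold on the values as deposited. UME6, the DNA-binding protein that represses early genes in growing cells and works with Ime1 in meiosis, read 18.0, 20.7, 38.2 and 44.9 units. It was 1.51-fold higher on the sir4-labelled array and 1.71-fold higher in the double mutant than in the wild type. On the values as deposited these were 2.12- and 2.49-fold, and both were then called, where 19.8% and 18.6% of all genes were called higher.

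A pair of spore formation genes was called. SSP1, which encodes a protein of the leading edge of the prospore membrane, read 3.0 units in wild type, 10.2 in the ubp10 mutant, 16.2 on the sir4-labelled array and 31.8 in the double mutant. It was under the floor in the wild type, above it in each mutant and highest in the double mutant. The double mutant was at least 3.27-fold above wild type and 2.21-fold above the ubp10 mutant, and 1.96-fold above the sir4-labelled array, just outside the call. With the floor doubled neither call held. Neither of its neighbours, GND1, an enzyme of the pentose phosphate pathway, and PFS1, was called higher in these comparisons. GND1 was called lower where SSP1 was called higher, with 1713.2 units in wild type, 1804.8 in the ubp10 mutant and 1023.6 in the double mutant. PFS1 lay at the floor on every array.

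SPS4, a middle sporulation gene, read 9.6 units in wild type, 8.7 in the ubp10 mutant, 29.6 on the sir4-labelled array and 14.0 in the double mutant. It was thus high on 1 array, that of the sir4 label, and the double mutant did not share that level. It was 2.19-fold higher on the sir4-labelled array than in the wild type and 2.11-fold lower in the double mutant than on that array; with the floor doubled the first of these calls was lost. The loss of 5′ signal on the sir4-labelled array was measured in the same RNA, and its part in the SPS4 and NDT80 values was not tested.

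The remaining genes passed the floor on some arrays without a call. ZIP1, the central element of the synaptonemal complex, read 9.6 units in wild type, 17.0 in the ubp10 mutant, 13.4 on the sir4-labelled array and 18.4 in the double mutant, with ratios to wild type of up to 1.77-fold. RED1, a protein of the chromosome axis, read 3.5, 13.2, 12.2 and 5.9 units in that order, and its value in the ubp10 mutant lay just under the brightness minimum of 13.3 units. SPO11, REC104, MSH5, SPO16 and SPS1 were each above the floor on 1 array only. SPO11, the break-forming enzyme, reached 7.1 units and SPO16, of synapsis initiation, 7.8 units on the sir4-labelled array. REC104, a partner of Spo11, reached 8.8 units in the double mutant, MSH5, a crossover protein, 7.3, and SPS1, a kinase of spore formation, 8.2. Values so near the floor have no order between arrays.

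**Figure D4:**
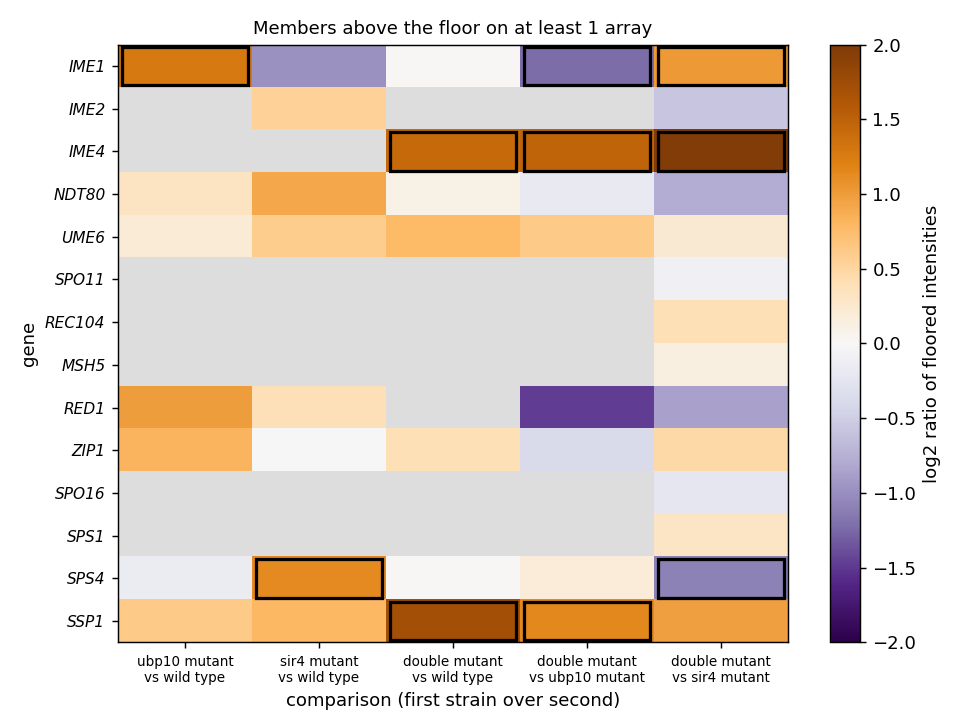
Log2 ratio (colour, first strain over second) of the 14 meiosis and sporulation genes above the floor on at least 1 array, in the 5 comparisons. Black frames mark the genes called, and grey cells have no ratio because both values were at the floor or the direction was set by a value at the floor. IME4 is framed in all 3 comparisons of the double mutant, with log2 ratios of 1.44, 1.48 and 1.98, and no other gene is.

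Other genes of the programme also gave few calls. Of 28 further spore formation genes, 2 (7.14%) were higher in the ubp10 mutant than in the wild type, 3 (10.7%) on the sir4-labelled array and 2 (7.14%) in the double mutant, and 0 were lower in each. The shares of all genes called lower were 8.38%, 9.65% and 6.63%. Those called higher were 9.44%, 6.03% and 4.3%. The share of the 28 called higher was thus below that of all genes in the ubp10 mutant and above it in the other comparisons. In the ubp10 mutant these were OSW2, of the outer spore wall, at least 2.95-fold, and SPO71, of the prospore membrane, 2.35-fold. On the sir4-labelled array they were ADY3 and SPO21, which encode proteins of the prospore membrane and the meiotic spindle pole plaque, with 2.61- and 2.18-fold, and GAS4, a glucan-remodelling enzyme of the spore wall, at least 2.28-fold. In the double mutant they were SPO73, of the prospore membrane, 2.17-fold, and GAS2, a relative of GAS4, 2.11-fold. ADY3, SPO21 and GAS2 read 6.8, 7.1 and 7.4 units in wild type, just above the floor, so their folds are little firmer than bounds.

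In the double mutant, OSW2 was 3.66-fold lower than in the ubp10 mutant, while SPO73 and GAS2 were 2.60-fold and at least 2.42-fold higher. These are 1 lower (3.57%) and 2 higher (7.14%) of the 28. Of all genes in that comparison, 13.2% were lower and 13.4% higher. SPO21, ADY3 and DON1, also of the prospore membrane, were 3.21-fold, 2.55-fold and at least 2.22-fold lower in the double mutant than on the sir4-labelled array, and 0 of the 28 were higher. The 3 lower are 10.7% of the 28, where 3.11% of all genes were lower and 7.94% higher. SPO21 and ADY3 resembled SPS4 in being brightest on that array, with 21.8 and 25.0 units against 7.1 and 6.8 in the wild type. In the double mutant they read 6.8 and 9.8 units, also near the floor.

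Of 15 further genes of meiotic chromosomes, 1 was higher in the ubp10 mutant, 0 on the sir4-labelled array and 1 in the double mutant, each against wild type. On the sir4-labelled array 6.03% of all genes were higher. A single gene of 15 is 6.67%, near the 9.44% and 4.3% of all genes called higher in the ubp10 mutant and the double mutant. The gene was MLH3, a mismatch repair protein that also acts in crossovers, which read 5.3 units in wild type, 22.5 in the ubp10 mutant, 18.0 on the sir4-labelled array and 27.4 in the double mutant. It was at least 3.37-fold higher in the ubp10 mutant and at least 2.82-fold higher in the double mutant. Of the 15, 1 (6.67%) was lower in the double mutant than in the ubp10 mutant, where 13.2% of all genes were. This was REC107, an accessory protein of break formation, at 2.14-fold, and 1.52-fold on the values as deposited. Its 2 probe sets differed: 1 read 22.2 to 51.1 units and the other stayed under the floor on every array.

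The 16 factors that control the programme in growing cells were mostly above the floor. SUM1, the repressor of middle genes, read 145.2 units in wild type, 165.8 in the ubp10 mutant, 98.9 on the sir4-labelled array and 96.1 in the double mutant. It was 2.07-fold and 2.20-fold lower on the last 2 of these than in the wild type, but 1.47- and 1.51-fold on the values as deposited. HST1, its partner deacetylase, was brightest on the sir4-labelled array, with 389.5 units against 194.3 in the double mutant, 2.0-fold lower and just inside the call. RPD3, the deacetylase that Ume6 recruits, was 2.0-fold higher on the sir4-labelled array than in the wild type, also just inside the call. SSN3, the kinase of the mediator complex, was 2.19-fold higher there. The RNA controls of that array stood apart, and their part in these values was not tested.

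SET3, of a deacetylase complex that represses sporulation genes, read 24.7 units in wild type, 84.5 in the ubp10 mutant, 28.3 on the sir4-labelled array and 9.6 in the double mutant. It was 3.42-fold higher in the ubp10 mutant than in the wild type, and 3.75-fold lower in the double mutant than in the wild type. It was 12.4-fold lower in the double mutant than in the ubp10 mutant and 2.95-fold lower than on the sir4-labelled array. SSN8, the cyclin partner of Ssn3, was at least 2.07-fold higher in the ubp10 mutant than in the wild type and at least 2.50-fold higher in the double mutant than on the sir4-labelled array. In all, 2 of the 16 were higher and 0 lower in the ubp10 mutant, 2 higher and 1 lower on the sir4-labelled array, and 0 higher and 3 lower in the double mutant, against wild type. The 3 lower were SUM1, SET3 and RME1, the last of which was also counted among the haploid-specific genes. They are 18.8% of the 16, where 6.63% of all genes were lower. On the values as deposited 2 were lower, where 2.07% of all genes were. The 2 higher are 12.5%, where 9.44% of all genes were higher in the ubp10 mutant and 6.03% on the sir4-labelled array. Between the mutants, 0 were higher and 3 lower in the double mutant than in the ubp10 mutant, and 1 higher and 3 lower than on the sir4-labelled array. All genes called lower were 13.2% and 3.11% in these comparisons, and 13.4% and 7.94% were higher. RME1 and SET3 were among the lower in both.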

How the data were processed

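Total RNA of 4 strains was hybridised to 1 Affymetrix Yeast Genome S98 array each. Intensity values were computed by the authors with MAS 4.0, per the labels, which do not state a scaling. The means between the 2nd and 98th percentile were 99.5 to 100.1 units, so the values were used unscaled. Gene names came from the platform annotation, matched by gene identifier to the RefSeq table of assembly R64. Of 9275 probe sets, 6504 had 1 gene and all matched, 328 had several and 2443 were not listed. The 60 control probe sets were left out. The median size of the negative values, taken as mirrored about 0, gave a noise SD of 2.22 units. Probe sets of 1 gene were averaged as log2 after flooring; 2 of the 36 genes had more than 1. Median ratios beyond 0.1 log2 were subtracted before calling. The calling was run on simulated data with an assumed noise. That run does not give the rate of false calls on these arrays. Alternatives were other floors, ratios, scalings and probe set rules, and used limma 3.58.1 in R 4.3.3; the rest used Python 3.11.15 with pandas 2.3.3. Named genes were every called member, the regulators, RME1, UBP10 and SIR4, and up to 4 called genes per other list and comparison. The members and lists were chosen with earlier results of these data known. Promoter and protein sequences were not analysed here.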

Additional observations from a re-analysis of the deposited data

Results flagged for a closer look

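A few genes moved in opposite directions under the same deletion in the 2 backgrounds; with 1 array per strain the difference was not tested. Loss of UBP10 came with a log2 ratio of SET3 of 1.77 without the sir4 label and of -1.56 with it. Under the sir4 label, log2 ratios were 1.08 where UBP10 was present and -1.77 where it was not for GPA1, the alpha subunit of the pheromone G protein, and of 1.08 and -2.54 for HO, the mating-type switching endonuclease. For YGL193C, the haploid-specific gene beside IME4, they were 1.44 and -2.62. None of the 36 meiosis and sporulation genes was called in opposite directions in this way. The SIR4 probe set read 10.8 units in wild type, 20.7 on the sir4-labelled array and 15.5 in the double mutant. Its lowest value, 4.9 units and under the floor, was in the ubp10 mutant, so loss of SIR4 rests on the labels here.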

How the results depend on the processing

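The 5 comparisons were recomputed under 9 alternatives, of which the brightest probe set in place of the mean, and plain probe sets alone, changed no count of members. With the floor doubled, the higher counts fell to 0 in all comparisons except the ubp10 mutant against wild type, so no rise of IME4, SSP1 or SPS4 was called; log2 ratios of IME4 were then 0.47, 0.53 and 0.98. With the floor halved, 3 members were higher in the ubp10 mutant (10.8% of all genes) and 4 on the sir4-labelled array (7.44%), and 2 were lower in the double mutant than in the ubp10 mutant (15.0%) and on the sir4-labelled array (3.61%). With a ratio of 1.5, 2 were higher in the ubp10 mutant (18.2% of all genes), 4 higher (16.7%) and 1 lower (17.8%) on the sir4-labelled array, and 2 lower in the double mutant than on that array (9.23%). With a ratio of 3, the double mutant kept 1 higher against wild type (SSP1, with 1.0% of all genes) and 1 against the sir4-labelled array (IME4, with 3.29%), and every other count was 0. On the values as deposited, 5 were higher on the sir4-labelled array, with 19.8% of all genes, and 0 were lower in the double mutant than in the ubp10 mutant, with 6.26%. Under quantile normalization 2 were higher in the ubp10 mutant (8.1% of all genes) and 2 on the sir4-labelled array (7.36%), and under cyclic loess 1 was lower on that array (8.42%). Under quantile normalization and loess, 2 were lower in the double mutant than in the ubp10 mutant (8.98% and 11.8% of all genes), and 1 was higher than on the sir4-labelled array (7.13% and 7.74%). The IME1 call between those last arrays was lost there, at log2 ratios of 0.64 to 1.03 over all alternatives. No paired analysis was possible because each strain had 1 array.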

Other observations

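Below the floor the values still had a sign, although 22 of the 36 genes lay at the floor on every array. Values so near the noise have no order between arrays, so the counts below do not show a rise. They use the values as deposited, without subtraction of the median ratio. Before flooring, 33 of the 36 meiosis and sporulation genes (91.7%) read higher in the double mutant than in wild type, against 80.6% of all genes. On the sir4-labelled array it was 31 of 36 (86.1%) against 74.6%, and in the ubp10 mutant 24 of 36 (66.7%) against 48.7%. Among the 31 members that the wild type had at the floor, 28 (90.3%) read higher in the double mutant, against 78.3% of all genes that began there. It was 27 (87.1%) against 76.7% on the sir4-labelled array and 20 (64.5%) against 63.9% in the ubp10 mutant. Between the double mutant and the sir4-labelled array, 18 of 36 (50%) read higher in the former, against 50.3% of all genes, and between the double mutant and the ubp10 mutant 29 of 36 (80.6%) did, against 70.2%. The noise SD of single arrays was 2.37 units for the wild type, 2.97 for the ubp10 mutant and 1.93 for each of the other 2 arrays, and its part in these counts was not tested.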
